A study of Mus musculus with 12 samples.

Results

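The 7 genes Dazl, Ddx4, Nanos1, Nanos2, Nanos3, Dnd1 and Ddx25 encode RNA-binding proteins and RNA helicases of germ cells. They were taken by name from the row names of 4 deposited comparison tables, and all 7 of them were found in every table, among 22725 row names in all. Primordial germ cells (PGCs) are the embryonic precursors of eggs and sperm. In these cells much of the control over gene products acts on messenger RNA after transcription. DAZL binds the 3′ ends of germ cell transcripts and regulates their translation and stability. NANOS proteins are zinc finger proteins that bring the CCR4-NOT deadenylase to bound transcripts, and DND1 is an RNA-binding partner of NANOS2 and protects germ cells from loss. DDX4, the mouse homologue of vasa, is a DEAD-box helicase of germ granules, and DDX25 is a testis helicase that acts in export and translation of RNA in later spermatogenesis.

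Messenger RNA of PGCs from C57BL/6 mouse embryos had been sequenced in 12 libraries. Wild-type cells came from embryonic day 9.5 (E9.5, 2 libraries), from E11.5 (2 libraries) and from E13.5, with 3 libraries labelled E13.5m and 3 wild-type libraries that carry no sex in their labels. Tet1 -/- cells (Tet1-KO, 2 libraries) came from E13.5. They lack TET1, an enzyme that oxidises 5-methylcytosine in DNA, and their wild-type controls share strain and age with them. The tables also name a group E13.5f, for which the series' design text gives 3 replicates. No sample title carries E13.5f, and that name is kept as the tables give it. RNA came from 400 to 5000 cells per library for E9.5, E11.5 and E13.5m and from 500 to 2000 cells for Tet1-KO and the unsexed wild type. How the cells were sorted, how many embryos were pooled and how the Tet1 allele was made are not given in the sources used here.

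Each table gives 1 pooled FPKM value per group (fragments divided by transcript length and by the number mapped). Levels therefore have no spread between libraries, and depth is unknown. Beside each log2 ratio stands a standard error (SE) worked back from the test statistic or p of its table. A gene was called when its deposited q-value or FDR was under 0.05. The labels do not tell whether 2 libraries of one group share an embryo, so spread between libraries may be technical. Each SE reflects the error model of the deposited test. It cannot be read as a gene's own measured spread, since no value per library is given. In these bulk samples fewer expressing cells and less RNA per cell cannot be told apart. Tet1 stood at 6.36 FPKM in the wild-type column and at 0.218 FPKM in Tet1-KO. All 10 germ cell markers examined, among them Pou5f1 and Dppa3, were at 1 FPKM or more in every group, with summed levels of 2650 to 3980 FPKM. Summed levels of 8 male gonad soma markers ran from 0 FPKM at E9.5, where all 8 were at 0, to 10.5 FPKM in E13.5m. Blood markers summed to 1883 FPKM at E9.5 and to between 5.11 and 35.9 FPKM in the later groups of the stage tables, with Ptprc at 0 in all 4 stage groups. Endothelial markers summed to 0.214, 10.5, 1.15 and 0.819 FPKM at E9.5, E11.5, E13.5f and E13.5m.

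The stretch before the gene start separates 6 of the 7 genes into a CpG-rich set and a set with fewer CpGs. It is shown because TET1 acts on methylated cytosines, which in these cells lie mainly in CpG dinucleotides. RefSeq promoter sequences (build GRCm38.p6, another build than the mm9 of the tables) were matched for 6 of the 7 genes. The 250 bases that end just before each gene start are given 5′ to 3′ on the gene's own strand, with every CpG in capitals. They lie at chr17:50293621-50293870 (minus strand) for Dazl, at chr13:112652311-112652560 (minus strand) for Ddx4 and at chr9:35558471-35558720 (minus strand) for Ddx25. Those of the pair with fewer CpGs lie at chr8:84176553-84176802 (minus strand) for Nanos3 and at chr7:18987274-18987523 (plus strand) for Nanos2.
Dazl: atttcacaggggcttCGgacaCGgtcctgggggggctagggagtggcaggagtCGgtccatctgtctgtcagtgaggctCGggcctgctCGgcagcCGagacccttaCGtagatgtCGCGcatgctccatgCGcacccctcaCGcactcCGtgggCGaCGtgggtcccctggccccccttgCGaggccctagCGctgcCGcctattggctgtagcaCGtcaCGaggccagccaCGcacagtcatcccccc
Ddx4: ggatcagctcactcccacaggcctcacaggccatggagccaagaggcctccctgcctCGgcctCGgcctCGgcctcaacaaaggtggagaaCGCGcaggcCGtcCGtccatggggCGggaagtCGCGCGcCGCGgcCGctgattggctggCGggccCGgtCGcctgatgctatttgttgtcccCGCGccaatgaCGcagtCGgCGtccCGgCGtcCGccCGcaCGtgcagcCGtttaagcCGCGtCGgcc
Ddx25: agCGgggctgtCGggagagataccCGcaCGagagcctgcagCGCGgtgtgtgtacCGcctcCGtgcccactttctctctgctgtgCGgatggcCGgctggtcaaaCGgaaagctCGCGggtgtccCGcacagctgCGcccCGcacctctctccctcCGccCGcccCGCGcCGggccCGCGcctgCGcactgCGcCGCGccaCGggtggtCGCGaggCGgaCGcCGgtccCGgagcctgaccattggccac
Nanos3: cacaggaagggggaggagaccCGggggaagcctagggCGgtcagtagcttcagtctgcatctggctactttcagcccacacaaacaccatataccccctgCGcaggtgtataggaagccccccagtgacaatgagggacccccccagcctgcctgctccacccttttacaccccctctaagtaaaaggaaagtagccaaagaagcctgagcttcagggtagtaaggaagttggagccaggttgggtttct
Nanos2: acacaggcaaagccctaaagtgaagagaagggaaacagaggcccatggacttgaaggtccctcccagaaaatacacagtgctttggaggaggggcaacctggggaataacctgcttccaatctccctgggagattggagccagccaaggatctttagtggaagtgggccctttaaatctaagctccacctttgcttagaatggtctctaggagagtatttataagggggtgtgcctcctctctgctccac

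Ddx25 had 34 CpGs in this window, Ddx4 had 31, Nanos1 had 25 and Dazl had 20. Nanos3 had 3 and Nanos2 had 0. Over 32851 RefSeq promoter windows of the same length the median was 6 CpGs, and 7.87 percent of windows had 0. The count in Dazl was above that of 82.1 percent of windows and the count in Ddx25 above that of 96.5 percent. The count in Nanos3 was above that of 29.0 percent of windows and lay between the quartiles, 2 and 16 CpGs. GC content ran from 50.8 percent in Nanos2 to 73.6 percent in Ddx25, against a median of 52.4 percent. For Ddx4 the window held the E-box CACGTG 29 bases before the start, a palindrome that 6.02 percent of all windows hold. It also held GCGGGAA, the core letters of an E2F-type site, 136 bases before the start on the gene's strand, which overlap GGGCGG at 138 bases. GCGGGAA was in 3.82 percent of all windows on either strand, and neither of these letter runs was in the other 5 windows. The TATA-type run TATAAA, which 12.4 percent of windows hold, was found in Nanos2 only, on the opposite strand with its match beginning 33 bases before the start. CCAAT was in 5 of the 6 windows (33.8 percent of all windows) and GGGCGG in 4 (32.7 percent of all windows). These matches describe letters and not bound sites.

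**Figure D1:**
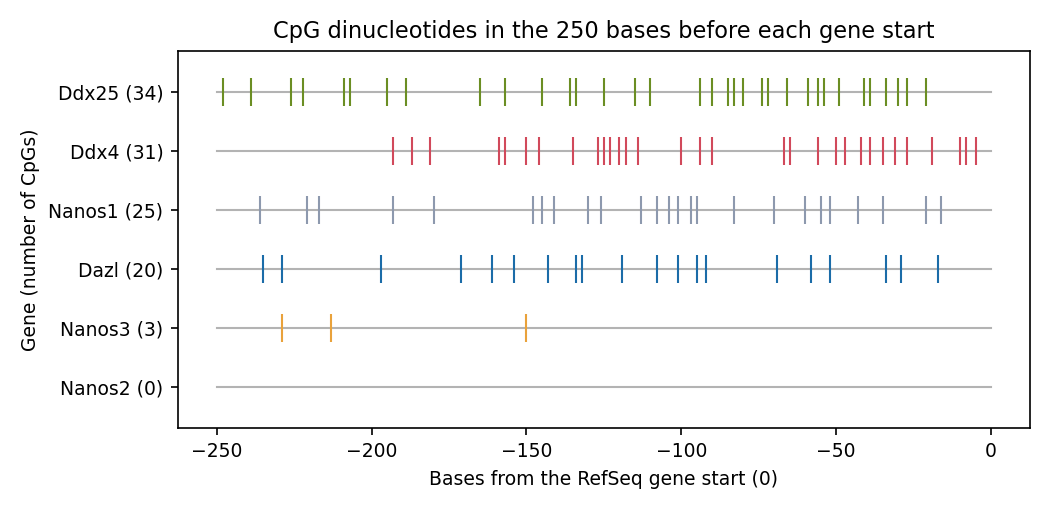
Position of each CpG dinucleotide (tick) in the 250 bases before the RefSeq gene start of 6 genes, with distance from the start in bases on the x axis and the CpG count in brackets. Ddx25, Ddx4, Nanos1 and Dazl carry 20 to 34 CpGs, Nanos3 carries 3 and Nanos2 none.

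The genes reached a given level at different stages. Dnd1, Nanos3 and Ddx25 were already at 20 FPKM or more at E9.5, Dazl and Ddx4 reached that level at E11.5, Nanos2 reached it at E13.5, in E13.5m alone, and Nanos1 stayed under 5 FPKM throughout. For this order all levels were put on the scale of the E13.5f table by constant factors between the E11.5 columns (0.870 for the E9.5 table and 0.976 for the E13.5m table). The order itself is a description of pooled values, with no test. It also depended on the level chosen. Ddx4 was at 5 FPKM or more already at E9.5 and Dazl at E11.5, while both were at 1 FPKM or more at E9.5. Nanos3 reached 50 percent of its highest wild-type level at E9.5 and Dnd1 at E11.5. Dazl, Ddx4, Ddx25, Nanos1 and Nanos2 reached that share at E13.5.

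On that scale Dazl was at 1.95 FPKM at E9.5, 309 at E11.5, 1421 in E13.5f and 1334 in E13.5m. Dazl moved from rank 9230 of 22552 genes at E9.5 to rank 368 at E11.5, rank 28 in E13.5f and rank 33 in E13.5m. The Dazl level at E9.5 was 0.137 percent of its highest level, and 21.7 percent had been reached by E11.5. Ddx4 was at 8.97 FPKM at E9.5, 153 at E11.5, 269 in E13.5f and 336 in E13.5m. Ddx4 had thus reached 45.6 percent of its highest level by E11.5, a larger share than Dazl. At E9.5 the Dazl level per length was 0.217 times that of Ddx4, and the ratio turned to 2.02 at E11.5, 5.28 in E13.5f and 3.97 in E13.5m. Nanos1 was listed at 0 at E9.5 and stood at 1.27 FPKM at E11.5, 4.59 in E13.5f and 2.16 in E13.5m. Nanos2 was at 0.0339 FPKM at E9.5, 0.0611 at E11.5, 0.910 in E13.5f and 24.7 in E13.5m. Only the E13.5m value of Nanos2 was above 1 FPKM. Nanos3 was at 26.3 FPKM at E9.5, 37.3 at E11.5, 17.0 in E13.5f and 36.3 in E13.5m, the one gene of the 7 whose highest value was at E11.5, though that value was close to the one in E13.5m. Dnd1 was at 174 FPKM at E9.5, 251 at E11.5, 389 in E13.5f and 305 in E13.5m. Dnd1 led the 7 genes at E9.5, at 89.5 times the level of Dazl, and stood at 0.229 to 0.811 times the level of Dazl in the later wild-type groups. Ddx25 was at 35.8 FPKM at E9.5, 29.3 at E11.5, 98.9 in E13.5f and 76.5 in E13.5m.

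**Figure D2:**
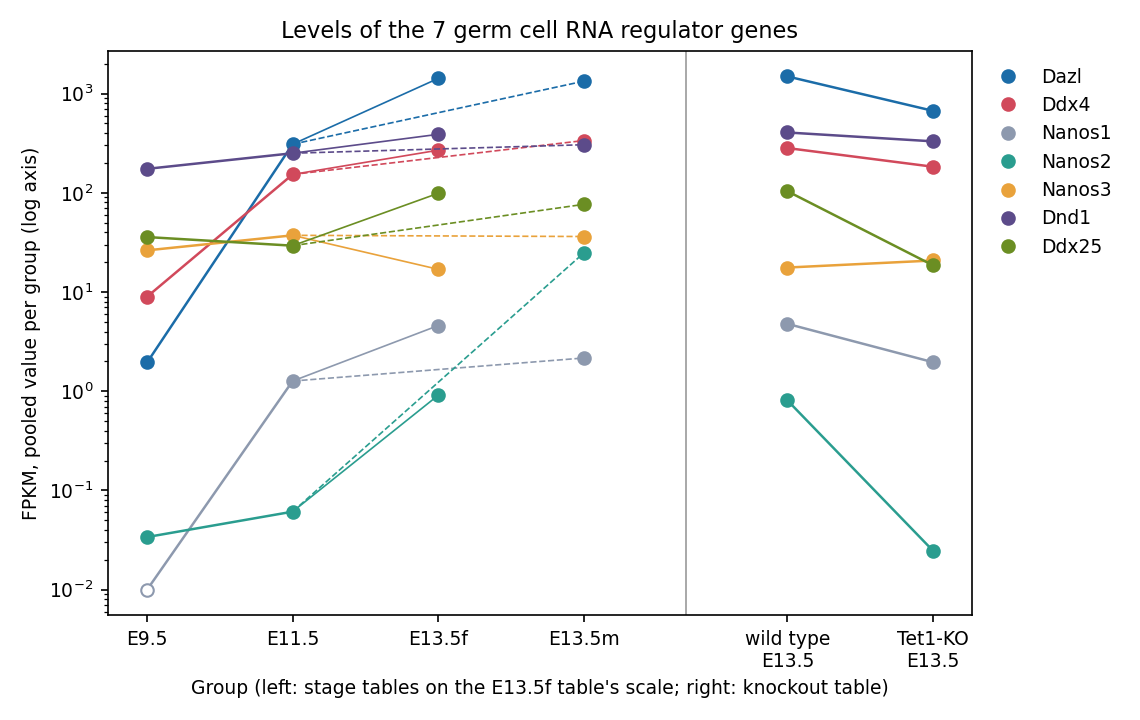
FPKM per group (log axis, 1 pooled value each) of the 7 genes, with the stage tables at left on a common scale and the knockout table at right; solid and dashed lines lead from E11.5 to E13.5f and E13.5m, and the open point marks a value listed at 0, drawn at 0.01. Dazl climbs from 1.95 to 1334 FPKM or more, Nanos2 exceeds 1 FPKM in E13.5m alone, and Dnd1 stays between 174 and 389 FPKM over the stages.

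The first comparison asked which of these genes changed between E9.5, when PGCs migrate, and E11.5, when they have settled in the gonad. Dazl, Ddx4 and Nanos1 rose, and Dnd1, Nanos3 and Ddx25 were not called. In the table's own scale Dazl went from 2.24 to 355 FPKM (log2 ratio 7.31 ± 0.84 SE), the second largest rise in log2(FPKM + 1) among the tested genes. Ddx4 (chromosome 13, 113388540 to 113442518, build mm9) went from 10.3 to 176 FPKM (log2 ratio 4.09 ± 0.45 SE), which was rank 20 by the same measure. The 95 percent intervals of these ratios, 5.67 to 8.95 for Dazl and 3.22 to 4.97 for Ddx4, did not overlap. Nanos1 (chromosome 19, 60831889 to 60835817) went from 0 to 1.46 FPKM, with a q-value of 0.0429 in the authors' deposited table. No ratio can be formed for it, and with a threshold of 0.01 Nanos1 was no longer called.

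Of 12904 tested genes 5.63 percent were called, 3.71 percent higher and 1.92 percent lower at E11.5, against 3 and 0 of the 6 tested members. The median change in log2(FPKM + 1) was 0.91 over those 6 and 0.29 over all tested genes. Dnd1 had a log2 ratio of 0.52 ± 0.44 (SE), with a 95 percent interval of -0.33 to 1.38, Nanos3 of 0.50 ± 0.68 (SE), with -0.83 to 1.84, and Ddx25 of -0.29 ± 0.52 (SE), with -1.31 to 0.73. These intervals leave room for changes of more than 2-fold in at least 1 direction, so the 3 genes were not shown to be level. Nanos2, at 0.0390 and 0.0703 FPKM, had no completed test. Blood markers moved with this comparison, at 1883 FPKM in sum at E9.5 and 25.9 at E11.5 (5 of 6 and 4 of 6 at 1 FPKM or more), while the germ cell markers summed to 3503 and 3347 FPKM. The part of blood cells in the ratios was not tested. All genes together shifted by a median log2 ratio of 0.32, and relative to it Dazl rose by 6.99 and Ddx4 by 3.77 on the log2 scale, both still called. Relative to that median 1.99 percent of genes were called higher and 2.9 percent lower.

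E13.5f was set against E11.5 next, at the stage when female germ cells enter meiosis. Dazl, Ddx25 and Nanos1 rose, and Ddx4, Dnd1, Nanos2 and Nanos3 were not called. Dazl (chromosome 17, 50418718 to 50432924) went from 309 to 1421 FPKM (log2 ratio 2.20 ± 0.43 SE). Ddx25 (chromosome 9, 35349432 to 35366055) went from 29.3 to 98.9 FPKM (log2 ratio 1.75 ± 0.46 SE). Nanos1 went from 1.27 to 4.59 FPKM (log2 ratio 1.86 ± 0.65 SE), with a q-value of 0.0401 in the authors' deposited table. That call of Nanos1 ended at a threshold of 0.01 and also relative to the table median, with an adjusted p of 0.0746.

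Among all 12448 tested genes 12 percent were called, 9.34 percent higher and 2.68 percent lower, against 3 and 0 of the 7 members. Relative to the table median of 0.19 on the log2 scale these shares were 6.97 and 4.15 percent, and Dazl and Ddx25 were the members still called. Ddx4 had a log2 ratio of 0.81 ± 0.37 (SE), with a q-value of 0.131 in the authors' deposited table. Dnd1 had 0.63 ± 0.40 (SE). Nanos3 (chromosome 8, 86697631 to 86700451) was the only member with a lower value, from 37.3 to 17.0 FPKM (log2 ratio -1.14 ± 0.61 SE) and q 0.218 in the authors' deposited table. Nanos2 went from 0.0611 to 0.910 FPKM, and its log2 ratio of 3.90 had an SE of 1.60. The median change in log2(FPKM + 1) was 0.85 over the 7 members and 0.22 over all tested genes. Markers of other cells moved as well. Female gonad soma markers summed to 2.76 FPKM at E11.5 and 12.5 FPKM in E13.5f (1 and 2 of 6 at 1 FPKM or more), with Irx3 called higher and Foxl2 at 0 at E11.5. Epithelial markers summed to 27.6 and 76.6 FPKM (3 of 4 at 1 FPKM or more in both), with Krt18 called higher and Pax8 lower. Both tested endothelial markers, Tek and Esam, were called lower, and so was Hba-x of the blood list. The part of these lists in the ratios was not tested.

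E13.5m was then set against the same E11.5 libraries, at the stage when male germ cells stop dividing. Nanos2 and Dazl rose and the other 5 genes were not called. Nanos2 (chromosome 7, 19572872 to 19574311), which male germ cells need to keep out of meiosis, went from 0.0626 to 25.3 FPKM and ranked 10 among rises in log2(FPKM + 1). The log2 ratio of Nanos2 was 8.66 ± 1.46 (SE), with a 95 percent interval of 5.80 to 11.51. Dazl went from 317 to 1366 FPKM (log2 ratio 2.11 ± 0.44 SE). Ddx25 had a log2 ratio of 1.38 ± 0.47 (SE) and Ddx4 of 1.13 ± 0.40 (SE), with q-values of 0.0630 and 0.0768 in the authors' deposited table. Dnd1 (0.28 ± 0.41, SE), Nanos1 (0.77 ± 0.75, SE) and Nanos3 (-0.04 ± 0.62, SE) had ratios within about 1 SE of 0.

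Among all 12311 tested genes 4.88 percent were called, 2.94 percent higher and 1.94 percent lower, against 2 and 0 of the 7 members. Relative to the table median of 0.02 on the log2 scale these shares were 3.17 and 2.19 percent, and Dazl and Nanos2 were again the members called. The median change in log2(FPKM + 1) was 1.13 over the members and 0.05 over all tested genes. Male gonad soma markers summed to 1.91 FPKM at E11.5 and 10.5 FPKM in E13.5m (0 and 4 of 8 at 1 FPKM or more), and 4.94 FPKM in E13.5f. Of the germ cell markers 3 of 10 were called lower in E13.5m and 0 higher. Female gonad soma markers summed to 2.76 and 10.3 FPKM (1 and 2 of 6 at 1 FPKM or more), with Rspo1 called higher, Foxl2 at 0 in both groups and Wnt4 at 0 in E13.5m. Steroidogenic markers summed to 1.43 and 10.1 FPKM (0 and 2 of 3 at 1 FPKM or more), with none called. Amh of the male list and Krt19 of the epithelial list were called higher, Pax8 and Esam lower. The part of these lists in the ratios was not tested. The E13.5f and E13.5m comparisons share the E11.5 libraries, whose sexes the labels do not give, so their results are not independent.

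**Figure D3:**
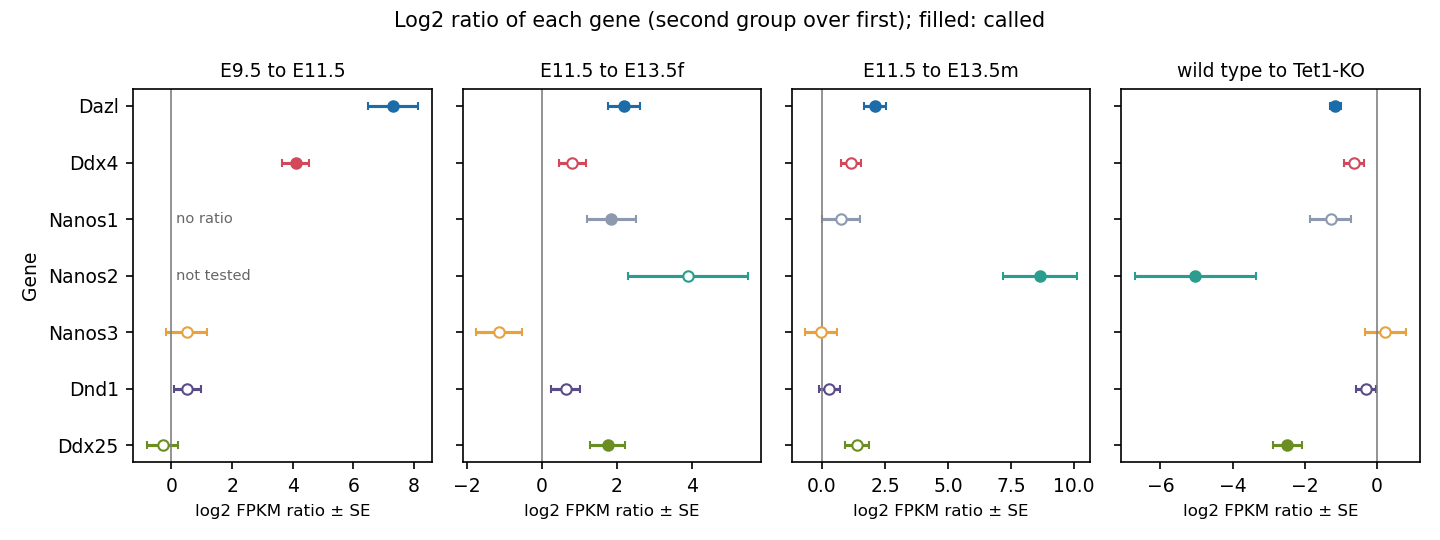
Log2 FPKM ratio of each gene (second group over first) with its SE in the 4 deposited comparisons, each panel with its own x axis; filled points passed the threshold of 0.05 in the deposited table. Dazl is filled in all 4 panels, on the positive side over the stages and at -1.15 in Tet1-KO.

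E13.5m and E13.5f were compared through the difference of their log2 ratios to E11.5, and none of the 7 genes passed. Nanos2 came nearest, at 24.7 FPKM in E13.5m against 0.910 FPKM in E13.5f. Its difference was 4.76 ± 2.16 (SE) on the log2 scale, with a 95 percent interval of 0.52 to 9.001, an unadjusted p of 0.0277 and an adjusted p of 1 over 10677 genes. Nanos3 was at 36.3 against 17.0 FPKM, a difference of 1.10 ± 0.87 (SE), and Nanos1 at 2.16 against 4.59 FPKM, a difference of -1.09 ± 0.99 (SE). For Dazl the difference was -0.09, with a 95 percent interval of -1.29 to 1.11, and for Ddx4 it was 0.32, with -0.74 to 1.39. The test found 0.122 percent of genes higher in E13.5m and 0.0468 percent higher in E13.5f. The E11.5 libraries are common to both ratios, so their error should largely drop out of the difference, yet this SE counts it in each ratio. The SE is therefore too wide, most of all for Nanos2, whose E11.5 level was 0.0611 FPKM, and a gene that did not pass is not shown to be alike in E13.5m and E13.5f. If E13.5f was made from the unsexed wild-type libraries, its library set and its sex cannot be told apart. The Y-linked gene Ddx3y was at 0.0120 FPKM in E13.5f, 0.0086 in the unsexed wild type and 0 in Tet1-KO. It was at 3.35 FPKM in E13.5m and 2.17 FPKM at E11.5. The sex of the libraries was not tested.

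The shares of the Nanos genes in their summed level are given as a description of pooled values, with no test. Nanos3 gave 99.9 percent of the summed Nanos FPKM at E9.5, 96.6 percent at E11.5, 75.5 percent in E13.5f and 57.5 percent in E13.5m. Nanos2 gave 39.1 percent of the sum in E13.5m and 4.05 percent in E13.5f, and Nanos1 gave 3.43 and 20.4 percent there. The sum itself was 26.3 FPKM at E9.5, 38.6 at E11.5, 22.5 in E13.5f and 63.1 in E13.5m. In E13.5m the Nanos2 level reached 0.681 times that of Nanos3.

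**Figure D4:**
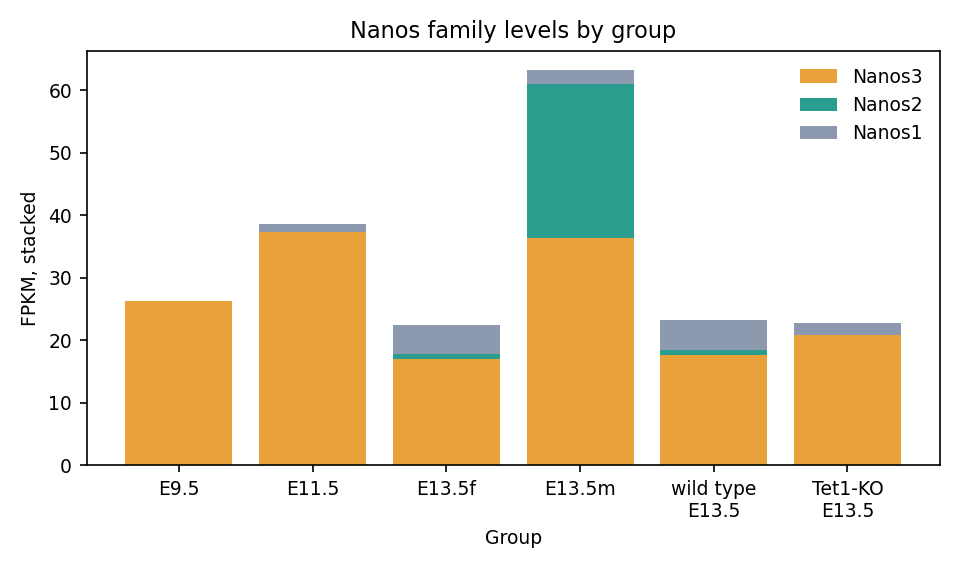
Stacked FPKM of Nanos3, Nanos2 and Nanos1 in each group, stage groups on the E13.5f table's scale and the last pair of bars from the knockout table. Nanos2 forms a visible share, 39.1 percent, in E13.5m, where the stack is 63.1 FPKM high.

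Tet1-KO was compared with wild type at E13.5. Dazl and Ddx25 fell, Nanos2 fell at levels under 1 FPKM, and Ddx4, Dnd1, Nanos1 and Nanos3 were not called. Ddx25 was at 104 FPKM in wild type against 18.6 FPKM in Tet1-KO (log2 ratio -2.48 ± 0.39 SE), or 17.9 percent of the wild-type level. It ranked 51 of 16394 among falls in log2(FPKM + 1). Dazl went from 1491 to 671 FPKM, or 45.0 percent of the wild-type level, a log2 ratio of -1.15 with an SE of at most 0.14. The deposited p of Dazl is listed at 0, so its SE was bounded with the smallest p above 0 in the table. Nanos2 went from 0.809 to 0.0247 FPKM (log2 ratio -5.03 ± 1.68 SE), and the authors' deposited table lists 0.0460 as its FDR. The call of Nanos2 ended with a minimum of 1 FPKM, at a threshold of 0.01, and relative to the table median, with an adjusted p of 0.0985.

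Ddx4 went from 283 to 183 FPKM (log2 ratio -0.62 ± 0.28 SE), and the authors' deposited table lists 0.162 as its FDR. Nanos1 went from 4.78 to 1.96 FPKM (log2 ratio -1.28 ± 0.57 SE), and the authors' deposited table lists 0.163 as its FDR. Dnd1 (chromosome 18, 36919892 to 36925868) was at 406 and 330.4 FPKM (log2 ratio -0.30 ± 0.28 SE). Nanos3 was the one gene with a higher value, at 17.7 and 20.8 FPKM (log2 ratio 0.24 ± 0.58 SE) with a 95 percent interval of -0.89 to 1.36. The row of Dnd1 has the same mm9 locus as that of Wdr55, a WD repeat gene that stood at 81.5 and 73.8 FPKM. The labels do not say that strand was kept, so reads from the part that these genes share cannot be told apart.

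Among all 16394 tested genes 6.16 percent were called, 5.48 percent lower and 0.677 percent higher in Tet1-KO, against 3 and 0 of the 7 members. The median change in log2(FPKM + 1) was -0.82 over the members and -0.21 over all tested genes. The whole table lay at a median log2 ratio of -0.38. Relative to it 1.64 percent of genes were called lower and 1.92 percent higher. Dazl, at -0.77, and Ddx25, at -2.10, were the members still called, and Dnd1 lay at 0.08. Germ cell markers summed to 2827 FPKM in wild type against 2650 FPKM in Tet1-KO, with 1 of 10 called higher and 0 lower. Female gonad soma markers summed to 12.98 and 17.08 FPKM in that order (2 and 4 of 6 at 1 FPKM or more). Sums were also higher in Tet1-KO for male gonad soma (3.57 and 4.53 FPKM) and steroidogenic cells (0.883 and 2.44 FPKM). They were lower for epithelium (79.76 and 63.63 FPKM), neurons (11.17 and 4.798 FPKM) and blood (3.38 and 0.631 FPKM). No gene of these other lists was called. What part they have in the ratios was not tested.

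The wild-type column of this table and the E13.5f column differed by nearly the same factor for 6 of the 7 genes, 1.04 to 1.05, the median over 4856 genes being 1.05. For Nanos2 the factor was 0.890. The knockout and E13.5f comparisons are therefore not independent of each other. Set beside the E11.5 and E13.5f levels without a test, Dazl in Tet1-KO, at 671 FPKM, lay between 309 and 1421. Ddx4, at 183 FPKM, lay between 153 and 269, and Nanos1, at 1.96 FPKM, between 1.27 and 4.59. Ddx25, at 18.6 FPKM, was below the E11.5 level of 29.3 FPKM. The Dazl level per length was 5.27 times that of Ddx4 in wild type and 3.66 times in Tet1-KO.

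Other genes of RNA control were read from 7 lists for comparison with the members. Of the other germ cell RNA-binding protein genes 4 of 25 tested rose from E9.5 to E11.5 and 0 fell. The largest changes were those of Cpeb1, which controls poly(A) tail length, from 5.63 to 54.3 FPKM, Stk31, from 9.004 to 65.9 FPKM, and Rbm46, from 13.5 to 50.2 FPKM. To E13.5f 5 of 25 rose and 0 fell, led by Adad1, a double-stranded RNA-binding protein gene, from 2.42 to 27.3 FPKM. To E13.5m 3 of 25 rose and 0 fell, namely Adad1, its relative Adad2 and the Y-linked Rbmy1a1, from 0.974 to 8.57 FPKM. In Tet1-KO 7 of 28 fell and 1 rose. Over all tested genes 3.71, 9.34 and 2.94 percent were called higher in the 3 stage comparisons, in that order. In Tet1-KO 5.48 percent of all tested genes were called lower and 0.677 percent higher. Adad1 fell from 28.4 to 3.41 FPKM and Nxf2, an RNA export factor gene, from 5.58 to 0.817 FPKM, while Rbmxl2 rose from 2.27 to 18.4 FPKM. Relative to the table medians the list's counts became 2 and 0, 3 and 0, 3 and 0, and, in Tet1-KO, 1 fall (Adad1) and 1 rise (Rbmxl2). These are out of 23, 25, 24 and 27 genes with an SE. Over all genes with an SE 1.99, 6.97 and 3.17 percent were called higher in the stage comparisons. In Tet1-KO 1.64 percent were called lower and 1.92 percent higher. The list's median change in log2(FPKM + 1) was 0.44, 0.47, 0.41 and -0.40 in the same order, where all tested genes had 0.29, 0.22, 0.05 and -0.21.

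The other DEAD-box helicase genes, most of them active in all cells, were called in 1 to 3 cases per table. Called shares over all tested genes were 5.63, 12, 4.88 and 6.16 percent, in the order of the 4 comparisons. From E9.5 to E11.5 1 of 31 tested rose (Ddx19b, from 5.76 to 15.6 FPKM), a call that ended relative to the table median. To E13.5f Ddx43, a helicase gene of testis and tumours, rose from 1.90 to 12.1 FPKM, while Ddx21 fell from 48.4 to 20.8 FPKM and the Y-linked Ddx3y from 2.17 to 0.0120 FPKM. Ddx43 was also the 1 called gene of 31 to E13.5m, from 1.95 to 8.57 FPKM. In Tet1-KO 1 of 33 fell, Ddx1, from 698 to 396 FPKM, a call that ended relative to the table median, where Ddx21 was the 1 gene called, as a rise. Median changes of this list in log2(FPKM + 1) were 0.49, 0.09, 0.23 and -0.51. Ddx4 and Ddx25 had changes of 3.97 and -0.28 from E9.5 to E11.5 and of -0.62 and -2.42 in Tet1-KO on that scale.

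Partners of the NANOS and DAZL proteins were called in 0 to 2 cases per list and table. In the CCR4-NOT list 0 of 11 tested genes were called from E9.5 to E11.5. The antiproliferative genes Tob1, from 15.1 to 40.5 FPKM, and Tob2, from 7.95 to 20.4 FPKM, rose to E13.5f (2 of 10), and Tob2 rose to E13.5m (1 of 10). In Tet1-KO 2 of 12 fell, Tob2 from 21.3 to 9.62 FPKM and Cnot10, a subunit of the complex, from 120 to 63.7 FPKM. Relative to the medians the 1 call left in this list was the rise of Tob2 to E13.5m. Of the P-body and decapping genes 0 were called in any of the 4 tables, with 10 or 11 tested in each. Of 8 DAZ family and partner genes 7, 4, 4 and 8 were tested in the 4 tables, in the order E9.5 to E11.5, to E13.5f, to E13.5m and Tet1-KO, with 0, 1, 1 and 2 called. Over all tested genes the called shares were 5.63, 12, 4.88 and 6.16 percent in that order. Dazap2, which encodes a DAZL-binding protein, rose to E13.5f from 79.0 to 267 FPKM and fell in Tet1-KO from 280.01 to 128 FPKM. Boll, the ancestral DAZ family member, rose to E13.5m from 4.20 to 8.51 FPKM and fell in Tet1-KO from 25.7 to 5.51 FPKM. It had no completed test to E13.5f, so its rise cannot be called particular to E13.5m. Relative to the medians the fall of Dazap2 was no longer called.

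**Figure D5:**
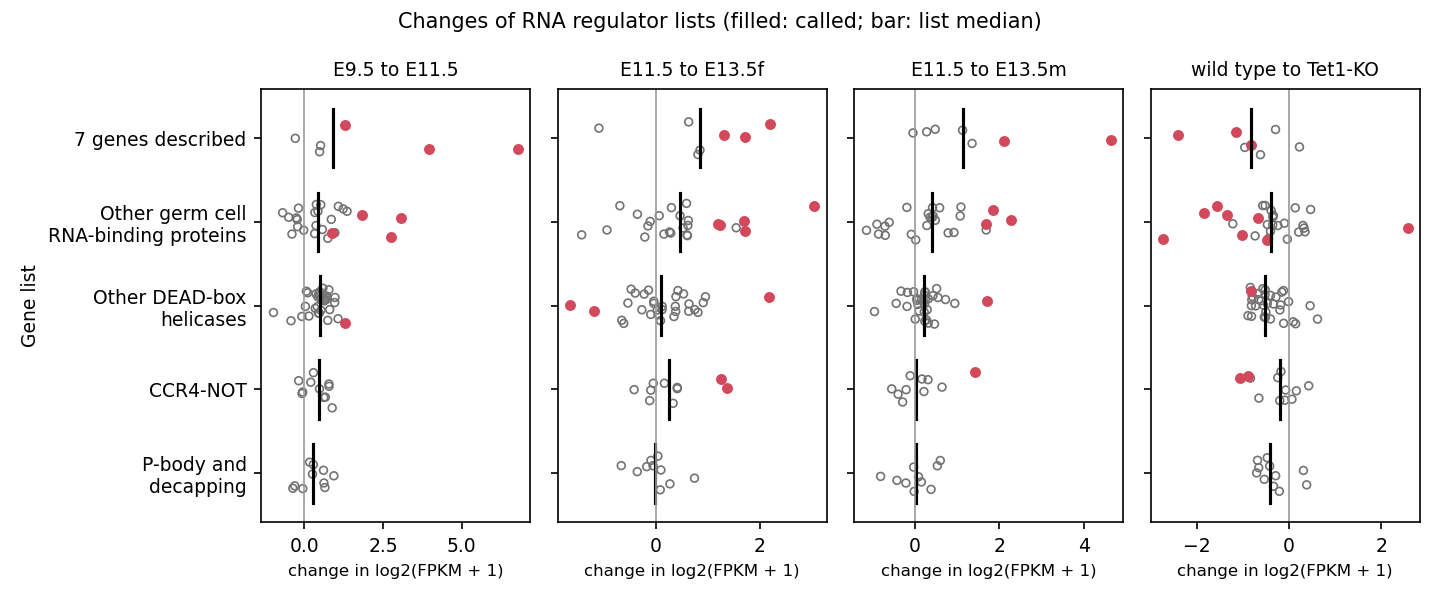
Change in log2(FPKM + 1) of each tested gene in the 7 genes and 4 other lists, in the 4 comparisons, each panel with its own x axis; filled points were called in the deposited table, vertical jitter has no meaning and black bars are list medians. In Tet1-KO the median of the 7 genes is at -0.82 and that of the other DEAD-box helicases at -0.51.

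Transcripts reported as DAZL targets moved in different directions. Over all tested genes 3.71, 9.34 and 2.94 percent were called higher from E9.5 to E11.5, to E13.5f and to E13.5m. Called lower in the same order were 1.92, 2.68 and 1.94 percent. In Tet1-KO 5.48 percent were called lower and 0.677 percent higher. From E9.5 to E11.5 3 of 7 rose, among them Tex19.1, a placental and germ cell gene, from 43.8 to 530.4 FPKM, and Sycp3, of the synaptonemal complex, from 7.17 to 52.2 FPKM. Sycp1, of the same complex, was the third, and it rose again to E13.5f, from 3.56 to 52.3 FPKM, and to E13.5m, from 3.65 to 27.4 FPKM. Of the 7 genes 5 had a completed test to E13.5f and 6 to E13.5m. Sycp3 was not tested in either comparison, and Sall4 was not tested to E13.5f, so neither gene can be called there. Sall4, a pluripotency factor gene, fell to E13.5m from 99.6 to 34.6 FPKM. In Tet1-KO Sycp3 fell from 433 to 77.3 FPKM and Sycp1 from 54.6 to 13.7 FPKM, while Sox2 rose from 23.7 to 67.3 FPKM. Relative to the medians Sall4 was also called lower from E9.5 to E11.5 and higher in Tet1-KO, and Sycp1 was not called from E9.5 to E11.5. Among 11 upstream signals, Kit, a receptor gene of PGCs, fell to E13.5m from 13.4 to 3.53 FPKM, and the growth factor gene Bmp4 rose there from 5.91 to 39.3 FPKM. Stra8, a gene of meiotic entry, also rose to E13.5m, from 0.210 to 39.0 FPKM. In Tet1-KO Bmp4 fell from 12.04 to 2.35 FPKM, a call that ended relative to the table median, and Stra8 fell from 302 to 32.2 FPKM. Smad5 and Stra8 were the 2 of 8 tested upstream genes that rose to E13.5f, Stra8 from 0.205 to 288 FPKM and Smad5 from 6.24 to 11.5 FPKM, the latter not called relative to the median.

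The genes most like 4 of the members were sought over 5 group levels (E9.5, E11.5, E13.5f, E13.5m and Tet1-KO) among 5490 genes at 20 FPKM or more in at least 1 group. Likeness was the Pearson r of log2(FPKM + 1), a description over 5 points that share the E11.5 libraries and come from 2 sets of tables. Among the genes closest to Dazl were Ica1 (r = 0.9996), Eif3j, Psma8 and Dmrt1. Dmrt1, a transcription factor gene of gonads and germ cells, went from 3.91 FPKM at E9.5 to 55.6, 172 and 158 FPKM and stood at 105 FPKM in Tet1-KO. Among those closest to Ddx4 were Mtmr7 (r = 0.999), Ldhb, Suds3 and Rbm44. Nanos2 was followed by the homeobox gene Hesx1 (r = 0.999), Rbm25, Otx2, Wnt3 and Cwc22. Nanos2, Hesx1, Otx2, Wnt3 and Cwc22 reached 20 FPKM in E13.5m alone, so an r near 1 among them rests on that group. The measure also ignores the size of a change: Rbm25 ran only from 79.7 to 101 FPKM. Hesx1 was at 0.225 FPKM at E11.5, 1.06 in E13.5f and 57.0 in E13.5m. Nanos3 was followed by Tdgf1 (r = 0.997), Tomm5, Serp1, Mettl1 and Dpy30, and Tdgf1, a Nodal co-receptor gene, was at 37.8, 0.845 and 25.9 FPKM in the same 3 groups. Between members r was 0.996 for Dazl and Ddx4 and -0.11 for Dazl and Nanos3.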

How the data were processed

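Per the labels' protocols, libraries were made from amplified cDNA of few cells, with more noise where levels are low, and run on an Illumina HiSeq. Bowtie, TopHat 1.3.1 and the build mm9 are named in the submitters' processing notes, with Cufflinks and Cuffdiff 1.2.1 for the stage samples and 1.0.3 for the knockout set. The authors deposited 4 tables with FPKM pooled over replicates, 1 value per group, per the file headers. Each gene's p-value and its q-value or FDR are also the authors' own, deposited with the tables. The test statistic of the stage tables is a deposited score, and the FDR of the knockout table, which exceeds 1 in some rows, was handled as a score.

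Log2 ratios were computed from FPKM. In the stage tables the SE is the ratio over the deposited statistic. In the knockout table the normal deviate behind the p took that place, and an SE is missing where a group is at 0 or the statistic or deviate is at most 0.05. Calls are the authors' own at 0.05 over rows with a completed test. List changes are in log2(FPKM + 1), a scale that shrinks changes of low genes. Table medians used genes with at least 1 FPKM on both sides. Calls relative to them, and the difference between E13.5m and E13.5f, used a two-sided normal test with Benjamini-Hochberg adjustment over all genes with an SE. The test was tried on simulated data with independent normal errors of the same SEs. That setting leaves out the shared E11.5 libraries and takes the normal model as given, so it cannot check either.

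The members and lists were chosen with earlier results of these data known, and the motifs after the values were known. Up to 3 called genes per list and comparison, by size of change, and the 5 genes most like each of 4 members could be named, of which 1 is not reported here. Markers of 9 cell types were read. Over the stage groups alone, summed FPKM ran from 0.423 to 10.1 for steroidogenic cells, 0.412 to 1.11 for mesenchyme and 27.6 to 76.6 for epithelium. It ran from 9.94 to 25.8 for neurons and from 2.76 to 12.5 for female gonad soma. Alternatives tried were the threshold 0.01, a repeated adjustment, minima of 1 FPKM and of 1 in log2 ratio, centring, and a pseudocount of 0.1. The tools were Python 3.11.15 with scipy 1.17.1, numpy 2.4.6, pandas 2.3.3 and, for figures, matplotlib 3.10.9.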

Additional observations from a re-analysis of the deposited data

How the results depend on the processing

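The number of members called stayed within 1.5 times under each of the 5 alternatives in each of the 4 tables. Between E13.5m and E13.5f 0 members passed the normal test with Benjamini-Hochberg adjustment (1 of the 7 and 401 of 10677 genes at an unadjusted p under 0.05), also with centring or at 0.01. Both settings keep the wide SE and a stricter threshold cannot add calls, so they do not bear on whether members differ. Nanos1 was lost from E9.5 to E11.5 and to E13.5f at a threshold of 0.01 and after centring (from E9.5 for want of an SE), and Nanos2 in Tet1-KO at 0.01, at a minimum of 1 FPKM and after centring. Called genes in the whole tables went from 727 to 348, from 1496 to 699, from 601 to 296 and from 1010 to 371 at a threshold of 0.01, and from 1010 to 490 in Tet1-KO after centring.

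Of 56 recomputed member changes in log2(FPKM + pseudocount) 46 moved by less than their SE and none that was called turned its sign. The other 10 include those of Nanos1 and Nanos2 from E9.5 to E11.5, which have no SE to compare with. With a pseudocount of 0.1 the change of Nanos2 to E13.5m went from 4.63 to 7.29. Centring moved the called Dazl change in Tet1-KO from -1.15 to -0.77, by more than its SE of at most 0.14. The uncalled Dnd1 change there moved from -0.30 to 0.08. No library could be left out in turn, since each table holds 1 pooled value per group, and the depth behind a value is unknown. No paired analysis was possible because no value per library is given.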
